A study of Drosophila melanogaster and Nicrophorus vespilloides with 16 samples.

Results

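The Hippo pathway genes described here are 10 genes of Drosophila melanogaster: hpo, wts, sav, mats, yki, sd, ft, ds, ex and Mer. They were chosen by name, with earlier results of these data known. All 10 were found among 13922 protein-coding genes on 6 chromosome arms in a RefSeq gene table. The mark measured was trimethylation of lysine 4 of histone H3 (H3K4me3), which is found at the starts of active genes, by chromatin immunoprecipitation and sequencing (ChIP-seq). The samples were 4 replicates of whole larvae of the laboratory strain Oregon-R in the last larval stage, with 30 larvae pooled in each, and the labels name no genetic change or treatment. The same study profiled adult brains of the beetle Nicrophorus vespilloides, which were not used here because their summits lie on another genome.

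The Hippo pathway limits the growth of organs. The kinase Hippo (hpo), helped by the scaffold Salvador (sav), activates the kinase Warts (wts) and its cofactor Mats (mats). Warts phosphorylates the coactivator Yorkie (yki) and keeps it out of the nucleus, where Yorkie otherwise joins the DNA-binding protein Scalloped (sd) to switch on growth genes. The large cadherins Fat (ft) and Dachsous (ds) and the cortical FERM-domain proteins Expanded (ex) and Merlin (Mer) feed into the kinases from the cell surface, and in larvae the pathway is best known for setting the size of the imaginal discs.

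Each replicate came with the authors' list of peak summits, a summit being the single base where a called peak is strongest. Fly replicates 1 to 4 held 3518, 4969, 5236 and 5313 summits, with median scores of 5.97, 8.83, 15.2 and 24.7. The score is the authors' own, apparently a p-value or q-value on the −log10 scale. It depends on sequencing depth, which is unknown, so each score was turned into a percentile among the summits of its own replicate, with 100 for the strongest. A summit counted for a gene when it lay inside the gene or within 1 kb of an end, and a gene with a summit in at least 3 of the 4 replicates was called marked. All values come from 1 group of samples, so no test between groups was possible, and counts of members are read against the same count over all protein-coding genes. In whole larvae a mark carried by few cells and a weak mark carried by many cannot be told apart. The labels name the tissue only as larvae.

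Of the 10 genes, 7 were marked (hpo, wts, sav, mats, yki, ft and Mer), against 44.9% of all protein-coding genes. In all 4 replicates 6 of the 10 had a summit, against 34.6% of all genes. With summits beyond the gene ends set aside, 6 of the 10 were marked inside the gene, against 32.7% of all genes, and the gene that dropped out was ft. For 5 of them, all but sav, this held in 4 of 4 replicates, against 20% of all genes. The 6 genes are both kinases, both of their cofactors, Yorkie and Merlin. Scalloped, the cadherins Fat and Dachsous, and Expanded had a summit inside the gene in 2 replicates or fewer. It was exactly 2 replicates for ex (5.98% of all genes), exactly 1 for sd and ds (4.65%) and none for ft (56.7%). No member was without a summit in all 4 replicates when the neighbouring 1 kb was counted, whereas 48.5% of all genes were. For sd and ds this rests on 1 summit each, in replicate 4, at the percentiles 0.499 and 0.922. For ft it rests on summits inside a neighbouring gene. The members are also longer, with a median of 10399.5 bp against 2163 bp over all genes, so a summit has more room to count for them.

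**Figure D1:**
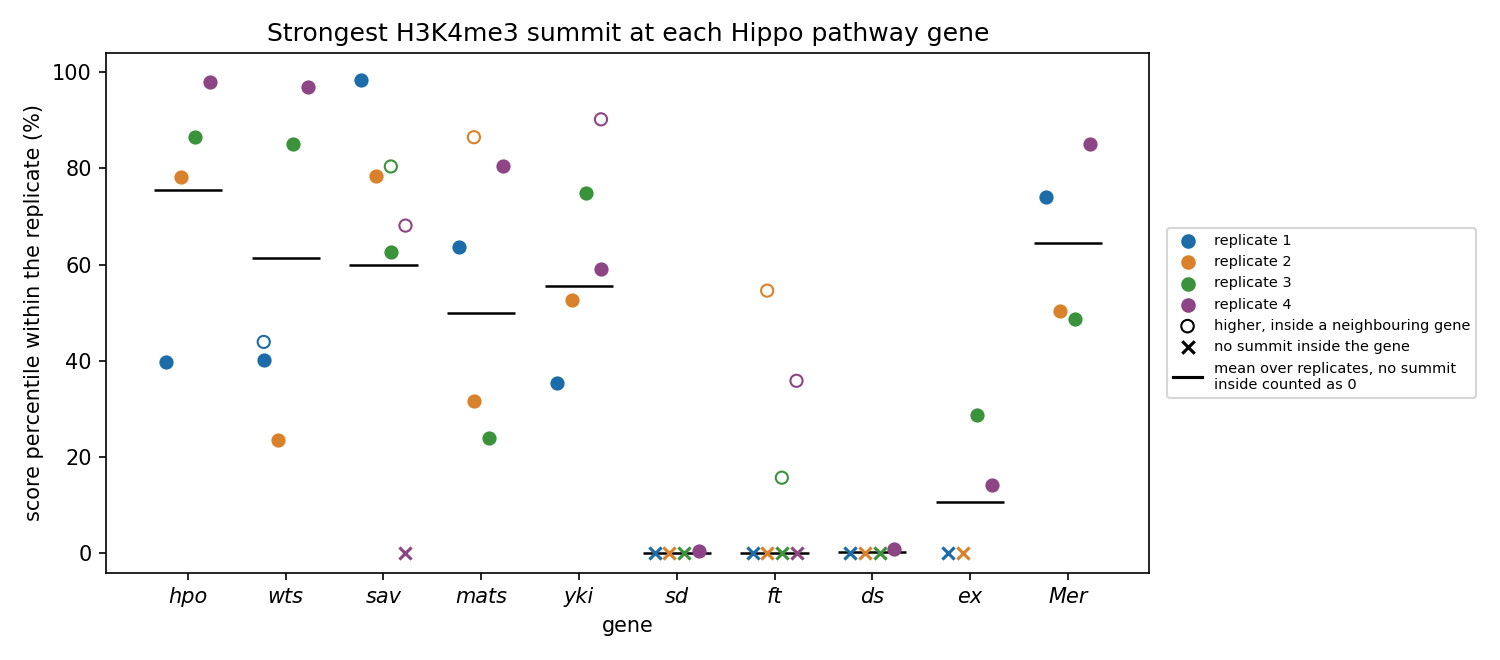
Score percentile within the replicate (vertical axis, percent) of the strongest summit at each of the 10 Hippo pathway genes (horizontal axis), with filled points for summits inside the gene, open points where a summit inside a neighbouring gene scored higher, crosses where the gene held no summit (plotted at 0) and bars for the mean of the filled points and crosses over 4 replicates. Means run from 49.97 to 75.6 for hpo, wts, sav, mats, yki and Mer and from 0 to 10.8 for sd, ft, ds and ex.

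The kinase hpo (CG11228, 2R, 19493996 to 19496856, 2.86 kb) had the highest mean percentile of the 10 for summits inside the gene. Its score was 5.29, 12.7, 25.2 and 58.0 in replicates 1 to 4, which is the percentile 39.7, 78.2, 86.5 and 97.9 of those replicates, a mean of 75.6 ± 25.3 (SD, n = 4). The summit was thus in the lower part of the list in replicate 1 and near the top in replicate 4, where it was place 112 of 5313. The 4 summits lay within 72 bp of each other, at positions 19496626 to 19496698. They were 158 to 230 bp inside the same end of the gene, and no other protein-coding gene came within 1 kb of them. At the other end hpo overlaps Rep by 130 bp, and no summit was called there.

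The downstream kinase wts (CG12072, 3R, 30789625 to 30806619) is a gene of 16995 bp, and its summits inside the gene all lay near 1 end. The percentiles were 40.2, 23.6, 85.2 and 96.9 in replicates 1 to 4, a mean of 61.4 ± 35.1 (SD, n = 4). Replicates 1 and 2 were low and replicates 3 and 4 high. The positions were more spread than at hpo, from 108 bp inside the end in replicate 2 to 535 bp in replicate 1, a span of 427 bp. A second region, 676 to 702 bp beyond the end of wts, was called in replicates 1, 3 and 4 inside dj-1beta, a gene of the DJ-1 family whose end lies 497 bp away. Its percentiles, 20.5 to 43.9, were below those inside wts in replicates 3 and 4 and above in replicate 1 (43.9 against 40.2).

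The scaffold gene sav (CG33193, 3R, 23058609 to 23061304) had a summit inside the gene in replicates 1, 2 and 3 but not in replicate 4, the longest of the lists. The percentiles inside sav were 98.3, 78.5 and 62.6 in replicates 1 to 3, and with replicate 4 counted as 0 the mean was 59.8 ± 42.5 (SD, n = 4). In replicate 1 it was place 59 from the top of 3518 summits, the best rank of any member in that replicate. A separate region inside the neighbour Ublcp1, 376 to 448 bp beyond the end of sav, was called in all 4 replicates, with percentiles of 71.5, 16.98, 80.4 and 68.1. In replicates 1, 3 and 4 it also lay within 1 kb of CG17111. The ends of sav and Ublcp1 are 188 bp apart. With the summits of Ublcp1 counted, sav stood at 81.3 ± 12.6 (SD, n = 4), the highest mean of the 10 members in the whole window.

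The cofactor gene mats (CG13852, 3R, 22421161 to 22423302) had a summit inside the gene in all 4 replicates, 153 to 380 bp from the same end. The percentiles were 63.8, 31.7, 23.96 and 80.5 in replicates 1 to 4, a mean of 49.97 ± 26.7 (SD, n = 4). Across a gap of 92 bp lies Nop56, which encodes a core protein of the box C/D small nucleolar particles. A region inside Nop56 was called in replicates 2 and 3, at the percentiles 86.5 and 22.3, and in replicate 2 it scored higher than the summit in mats.

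The effector yki (CG4005, 2R, 24065975 to 24068485) also had a summit inside the gene in every replicate. Its percentiles, 35.3, 52.7, 74.9 and 59.1 in replicates 1 to 4, gave a mean of 55.5 ± 16.4 (SD, n = 4), the smallest SD among the 6 genes marked inside. The summits spanned 176 bp and lay 220 to 396 bp from the end, deeper in the gene than those of hpo in 3 of 4 replicates, and in replicate 4 at 220 against 230 bp. The neighbour Gpat4, a glycerol-3-phosphate acyltransferase gene, begins or ends 271 bp away and held a summit in replicates 1 and 4, at the percentiles 22.7 and 90.2.

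The DNA-binding partner sd (CG8544, X, 15804370 to 15827682) differed from the kinases and from yki in its values. A single summit was called inside this 23.3 kb gene, in replicate 4, with a score of 2.44. That is the percentile 0.499 of the replicate and place 26 from the bottom of 5313. In replicates 2 and 3 the nearest summits lay inside PGRP-LE, a peptidoglycan recognition gene, 1578 and 1572 bp from the end of sd, and in replicate 1 the nearest lay 4.44 kb away.

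Of the 4 upstream genes, Mer (CG14228, X, 19689697 to 19693500) had values like those of the kinases. It had a summit inside the gene in all 4 replicates, at the percentiles 74.1, 50.4, 48.7 and 85.0, a mean of 64.6 ± 17.9 (SD, n = 4). The summits lay 116 to 218 bp from the same end, and those of replicates 3, 1 and 4 were close together, at 19693282, 19693290 and 19693305. The end of CG14229 is 476 bp away, and no summit was called inside it within 1 kb of Mer.

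The other FERM gene, ex (CG4114, 2L, 431227 to 448701, 17.5 kb), had a summit inside the gene in replicates 3 and 4 only. The percentiles were 28.8 and 14.2, and the mean with absence counted as 0 was 10.8 ± 13.8 (SD, n = 4). The positions, 277 and 244 bp from the end, were 33 bp apart, and no other protein-coding gene lay within 1 kb of them. In replicates 1 and 2 the nearest summit was 4.19 and 4.12 kb from ex, inside crq, a scavenger receptor gene that overlaps the other end of ex by 448 bp.

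The atypical cadherin gene ds (CG17941, 2L, 640013 to 714983) is the longest member, at 74971 bp. It held 1 summit in 1 replicate, in replicate 4, 200 bp from an end, with a score of 2.72. That is the percentile 0.922, place 49 from the bottom of the list. The position also lies inside lncRNA:CR44988, a non-coding RNA gene that overlaps ds by 4416 bp. In replicates 1, 2 and 3 the nearest summit was 36.8 to 37.0 kb away, inside CG13689. Depth is unknown, so the absence of a call there does not show the absence of the mark.

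The cadherin gene ft (CG3352, 2L, 4198404 to 4221796, 23.4 kb) held no summit in any replicate. It counted as marked through the region of a neighbour alone. In replicates 2, 3 and 4 a summit lay inside Naprt, which encodes the enzyme nicotinate phosphoribosyltransferase and has an end 332 bp from that of ft. It was 512, 607 and 603 bp beyond the end of ft and stood at the percentiles 54.6, 15.7 and 35.9. Among all protein-coding genes 6.45% were likewise marked with no summit inside.

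**Figure D2:**
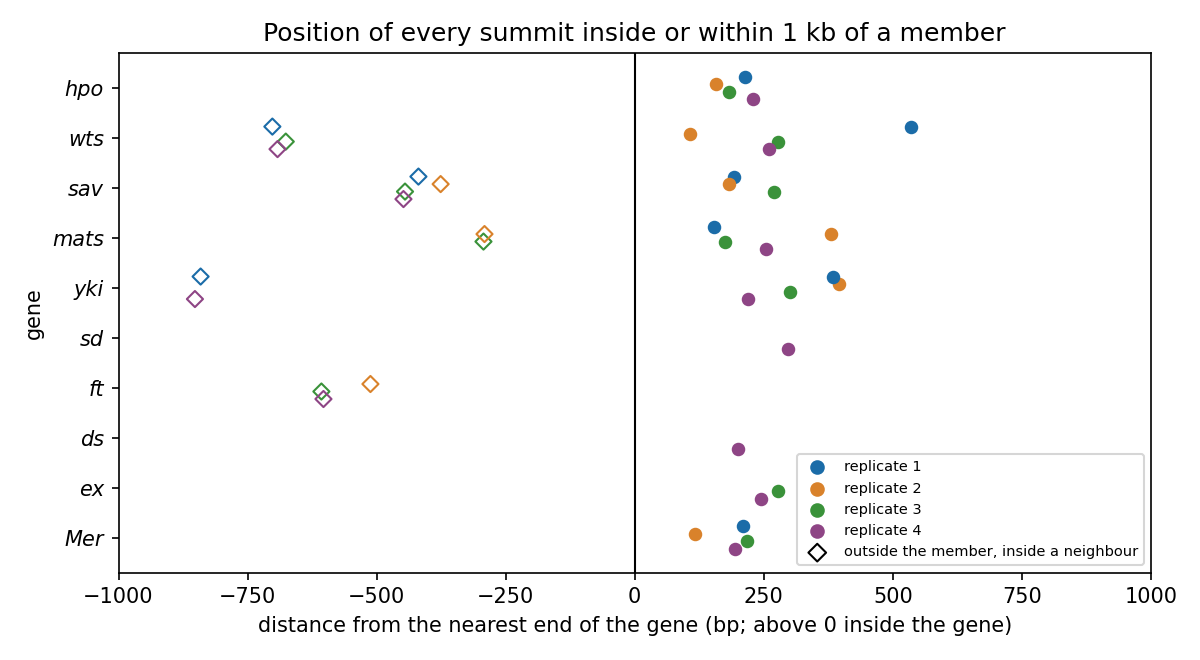
Distance of each of the 41 summits from the nearest end of the member gene (horizontal axis, bp, above 0 inside the gene) for the 10 genes (vertical axis), with circles for the 27 summits inside a member, diamonds for the 14 inside a neighbouring gene, and 1 colour per replicate. All circles lie between 108 and 535 bp, and each gene has its circles at 1 end.

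Where in the gene the mark was called was much the same for all members with a summit. The 27 summits inside members had a median distance of 220 bp from the nearest end. Over all summits inside a protein-coding gene, the median of a replicate was 221 ± 16.2 bp (SD, n = 4). Each of the 9 genes with a summit inside had it at 1 end only, which could not be otherwise for sd and ds with 1 summit each. Of 2628 protein-coding genes over 2 kb that were marked inside within 1 kb of an end, 0.19% were marked so at both ends, so a single marked end was the usual case. That count asks for at least 3 replicates at an end, which 6 of the members met. The gene table has no strand, so whether the marked end is the start of the gene could not be told from it.

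How closely the replicates placed their summits differed between members. Summits of different replicates at most 250 bp apart were joined into regions, and 2433 regions over the arms held a summit of all 4 replicates, with a median width of 110 bp (quartiles 71 and 182). The regions in hpo, Mer, yki and mats were of this kind, with widths of 72, 102, 176 and 227 bp, of which that of mats was above the upper quartile. The region in sav held 3 replicates in 87 bp, against a median of 85 bp (quartiles 51 and 130) for regions of 3 replicates. The wts summit of replicate 1 stood apart from the region of the other 3 replicates, which was 169 bp wide, above the upper quartile for 3 replicates. This depended on the joining distance: joined at 500 bp, the summits inside wts formed 1 region of all 4 replicates.

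Most summits had a second gene nearby, at the members as in the whole lists. Of the 41, 33 (80.5%) lay within 1 kb of at least 1 other protein-coding gene, and across the whole lists the share inside or within 1 kb of at least 2 such genes was 80.6% ± 3.51 (SD, n = 4 replicates). The 14 summits outside the members all lay inside another protein-coding gene, so they were bound to count among the 33. The share at the members and that of the whole lists are therefore not like for like, and nothing is read from their closeness. The 8 summits that had no other such gene within 1 kb were those of hpo, ex and ds and the replicate 1 summit of wts.

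Of the 6 genes marked inside, 5 had mean percentiles above the middle of all genes marked inside, and mats lay close to it. Over 4546 such genes the median of the mean percentile was 50.4 (quartiles 34.6 and 65.4), and over the 6 genes it was 60.6. hpo stood above 87.6% of them, Mer above 73.5%, wts above 68.5%, sav above 66.4%, yki above 59.1% and mats above 49.5%. The order from hpo to Mer, wts, sav, yki and mats had steps from 1.60 percentile points (wts to sav) up to that from hpo to Mer, all under the smallest SD among these genes, 16.4, so neighbours in this order did not differ beyond the spread between replicates. From mats to ex the step was 39.2, and 3 of the 4 values inside mats were above both values of ex.

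**Figure D3:**
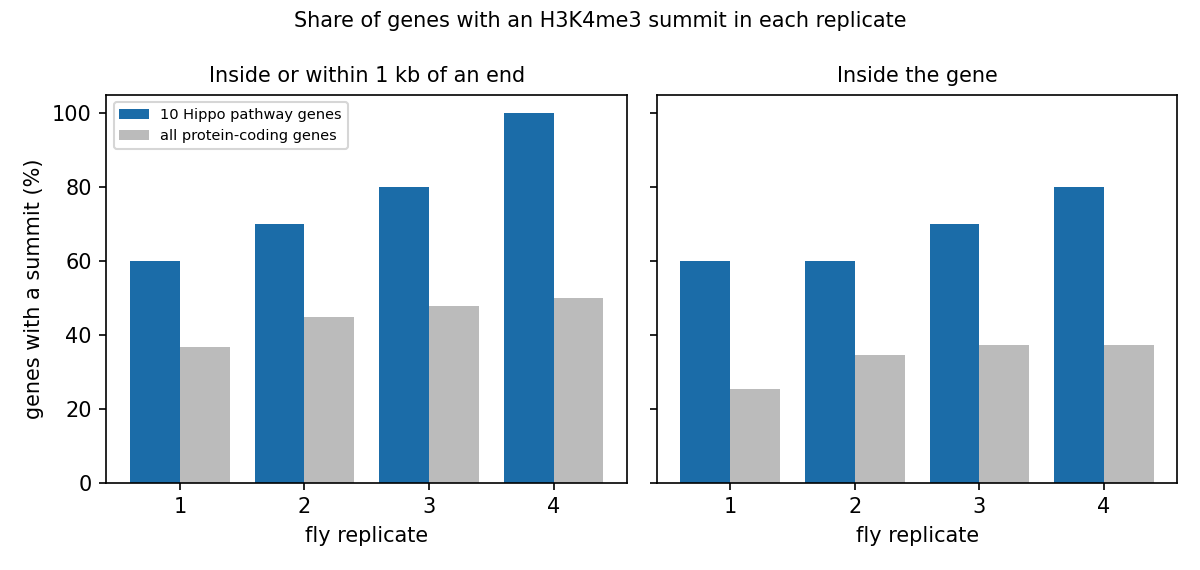
Share of genes with a summit (vertical axis, percent) in each fly replicate (horizontal axis) for the 10 Hippo pathway genes and for all 13922 protein-coding genes, with summits inside the gene or within 1 kb of an end on the left and summits inside the gene on the right. Inside the gene the members rise from 60% in replicates 1 and 2 to 80% in replicate 4, and all genes from 25.4% to 37.3%.

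More members had a summit in the replicates with longer lists. Inside the gene 6, 6, 7 and 8 of the 10 had a summit in replicates 1 to 4, against 25.4%, 34.6%, 37.3% and 37.3% of all genes. Replicates 1 and 2 called hpo, wts, sav, mats, yki and Mer, replicate 3 added ex, and replicate 4 lacked sav and had sd, ds and ex. Counting the 1 kb beyond each end as well, 6, 7, 8 and 10 members had a summit, against 36.6%, 44.8%, 47.9% and 50.1% of all genes. The calls in sd and ds rest on replicate 4 alone, and without that replicate neither gene holds a summit.

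Divided by gene length at 10 kb, the members marked inside were those under 10 kb and wts. The 5 members under 10 kb (hpo, sav, mats, yki and Mer) were all marked inside, against 33.4% of all genes of that length. Of the 5 members of at least 10 kb (wts, sd, ft, ds and ex), 1 was marked inside (20%), near the 28% of the 1976 genes of that length. Over all genes the shares for shorter and longer genes, 33.4% and 28%, were not far apart. The part of length in the difference between members was not tested.

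Further genes of the pathway were taken from 6 lists by role, which hold no member. Of 57 listed names 55 were matched, and 54 of these are protein-coding. The microRNA gene mir-ban (bantam), a growth target, had no summit within 1 kb. It is annotated at only 81 bp, so a summit farther from that stretch could not count for it. Of the 54, 38 were marked (70.4%), and 32 were marked inside the gene (59.3%), against 44.9% and 32.7% of all protein-coding genes. For 5 of the 54 no summit was found in any replicate, against 48.5% of all protein-coding genes.

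The lists of kinases and phosphatase subunits, of LIM proteins and actin regulators, and of partners of Yorkie and Scalloped had the highest shares. Of 11 genes for further kinases, Rassf and the STRIPAK phosphatase complex, which restrains Hippo, 10 were marked. Cka, the scaffold of that complex, stood at 94.3 ± 5.86 and mts, its catalytic subunit, at 89.6 ± 0.713 (SD, n = 4). With summits inside the gene alone, mts stood at 82.6 ± 10.6. The kinase gene Sik2 had no summit. Of 12 partners of Yorkie and Scalloped, 10 were marked. In the whole window they were led by the Scalloped corepressor Tgi at 93.6 ± 3.09 and by 14-3-3zeta at 88.3 ± 18.2. The protein family of 14-3-3zeta binds phosphorylated Yorkie. With summits inside the gene alone, Tgi stood at 75.6 ± 16.5, below 14-3-3zeta at 87.5 ± 17.9. All 5 listed genes of LIM proteins and actin regulators were marked, with capt, a cyclase-associated protein, at 88.5 ± 3.65 and cpb, a capping protein subunit, at 74.4 ± 27.5. For capt a summit lay inside the gene in 2 replicates only, at a mean of 11.8 ± 14.1.

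The lists of apical scaffold and polarity genes, of the Fat and Dachsous branch and of targets had shares nearer to that of all genes. Of 11 apical scaffold and polarity genes, 6 were marked, with the phosphatase gene Pez at 88.0 ± 9.25 and par-6 at 49.5 ± 21.4 (SD, n = 4), and the other 5 had a summit in 1 or 2 replicates. In the Fat and Dachsous branch 3 of 6 were marked, among them lft at 86.8 ± 7.71 and the kinase gene dco at 63.5 ± 28.3, and Dlish had no summit. With summits inside the gene alone and absence counted as 0, the mean was only 13.2 ± 9.81 for lft and 41.1 ± 41.8 for dco. The higher means of the whole window came from summits beyond the gene ends. In replicate 2, though, the strongest summit of dco, at 98.9, lay inside the gene. Of 9 protein-coding target genes, 4 were marked. These were led by the glypican gene dlp at 65.2 ± 27.9 and the inhibitor of apoptosis Diap1 at 28.4 ± 23.8 (SD, n = 4). For dlp a summit lay inside the gene in 2 replicates only, and the mean with absence counted as 0 was 3.57 ± 6.80. For Diap1 all 4 replicates had one inside. The cyclin gene CycE had no summit. In the whole window, the median of the mean percentile over the marked genes of a list was 75.01 for partners of Yorkie and Scalloped. It was 67.4 for LIM proteins and actin regulators, 63.5 for the Fat and Dachsous branch and 59.9 for kinases and phosphatase subunits. For apical scaffolds it was 42.7 and for targets 24.0, the last over 4 genes. Over all 6250 marked genes it was 59.9. Summits beyond the gene ends count in these medians, and they raised the values of lft, dco and dlp as given above.

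**Figure D4:**
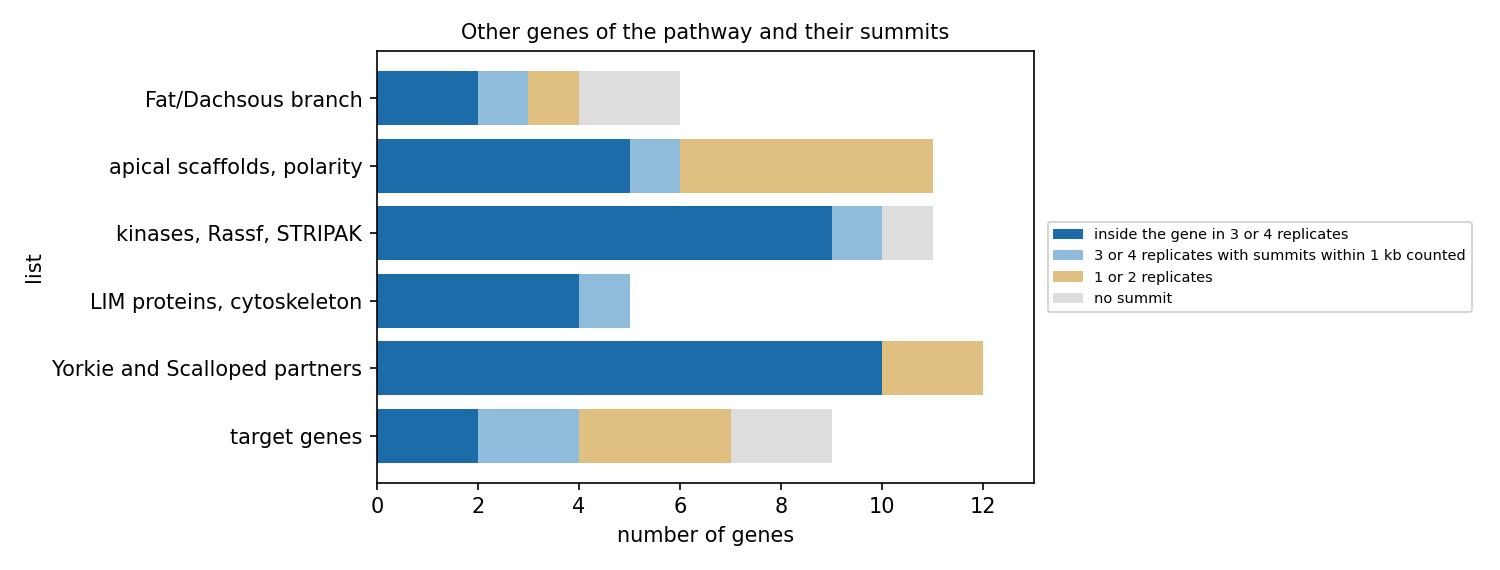
Number of genes (horizontal axis) in each of 6 lists of other pathway genes (vertical axis), divided into genes with a summit inside in 3 or 4 replicates, genes that reach 3 replicates only when summits within 1 kb are counted, genes with a summit in 1 or 2 replicates and genes with none. The first class holds 9 of 11 genes for kinases, Rassf and STRIPAK, 10 of 12 partners of Yorkie and Scalloped and 2 of 9 targets. Of all protein-coding genes 32.7% fall in it.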

How the data were processed

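ChIP-seq for H3K4me3 was carried out by the authors on 30 µg of chromatin per sample, fixed in 1% formaldehyde for 10 min and sonicated for 10 min, per the labels' protocols. The submitters' processing notes name BWA 0.7.17 among other tools, and MACS2, with settings, genome build and use of the input libraries not given in the sources used here. The inputs were not analysed here. Each deposited list holds the summits of 1 sample with a score in the form of −log10 of a p-value or q-value, and which of them is not stated. The lowest score of a replicate was 1.31 to 1.36, and a p-value or q-value of 0.05 gives 1.301 on that scale.

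Gene ends and names came from a RefSeq table of Release 6 plus ISO1 MT. As a check of the build, 47.0% to 88.5% of the summits on an arm were found at most 500 bp from an end of one of its genes, and no more than 20.7% when the genes of a different arm were used. The table holds no strand, transcript starts or sequence, so the planned search around gene starts and the promoter motifs were not run, and no sequences are shown. Positions are 1-based.

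Absence of a summit counted as percentile 0 in means. Read depth is unknown, and no interval was computed. The members and lists were chosen with earlier results of these data known. All members were named, and from each list the 2 marked genes with the highest mean percentile and the alphabetically first with no summit. Neighbouring genes were named where a summit counted for a member lay inside them or within 1 kb of their end. The genes Rep, crq and CG13689 and the microRNA were named after their values were seen. In simulated summits placed inside 2500 of 13922 genes, all planted genes with a summit in at least 3 replicates were marked. The placing fixed this outcome in advance, so it checks only that the marking step ran as written. Among the others 10.4% were marked in the whole window and 2.48% inside the gene. These shares belong to the simulated lists, which were shorter than the real ones, and give no rate for the real data. Calculations were run in Python 3.11.15 with pandas 2.3.3, numpy 2.4.6 and, for plots, matplotlib 3.10.9.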

Additional observations from a re-analysis of the deposited data

Results flagged for a closer look

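In 4 of 22 genes looked at (the 10 members and 12 named genes of the lists), 1 replicate stood far from the other 3 in the score percentile of the strongest summit. Chance flags about 1 in 20 groups of measured values. That rate does not apply to sd and ds, since any gene with a summit in 1 replicate alone is flagged once absence counts as 0. Nor does it hold for the 12 named genes of the lists, which were picked for high mean percentiles over these same replicates. For sd the percentile was 0.499 in replicate 4 and 0 in the others. For ds it was 0.922 in replicate 4 and 0 in the others. Both values belong to summits near the bottom of the list of replicate 4, which has the most summits. For 14-3-3zeta replicate 2 stood at 61.2, below 95.3, 96.8 and 100 in replicates 1, 3 and 4, and the summit of replicate 4 was the strongest of its list. For par-6 replicate 3 stood at 81.5, above 41.6, 37.2 and 37.9 in replicates 1, 2 and 4.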

How the results depend on the processing

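The number of marked members stayed within 6 to 8 of 10 under all settings run, and hpo, wts, sav, mats, yki and Mer were marked in each of them. It was 7 with scores of at least 5, 6 with the 3518 strongest summits of each replicate, 6 with 250 bp and 8 with 2 kb beyond the gene end, 8 with 2 and 6 with 4 replicates asked for, and 6 without summits inside another gene. Leaving out each replicate in turn gave 7 to 8 for the whole window and 6 to 7 inside the gene. The runs inside the gene were chosen after seeing the data. With a replicate left out, a summit in 2 of the 3 remaining replicates was enough for a call, a looser rule than 3 of 4. ft lost its call with equal list lengths, with 250 bp, inside the gene, without summits of neighbours and with 4 replicates asked for. ex, called in replicates 3 and 4 only, gained one with 2 replicates asked for or, under that looser rule, without replicate 1 or 2. sd gained one with 2 kb, through summits inside PGRP-LE. The share of all genes moved from 32.7% to 49.8% and the other pathway genes from 27 to 42 of 54. Of 80 recomputed percentiles of members 78 moved by at most 1 SD, the exceptions being sav at 59.8 and ft at 0 with summits inside the gene. The SD is wide for ex and ft. With equal list lengths ex, sd and ds held no summit and ft stood at 9.76, against 26.6. Without replicate 3 ex stood at 4.75, against 10.8, and without replicate 2 ft stood at 17.2. With scores of at least 5, sd and ds held none. Joining summits at 100 or 500 bp changed the number of regions at wts (4 or 2, against 3) and mats (3 or 1, against 2) and at no other member. The search around gene starts was not run. No paired analysis was possible because no test between groups was made. Depth is unknown, so a missing summit does not show that the mark was absent.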
